A study of Homo sapiens with 49 samples.

Results

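TAF1 binding was compared between Ishikawa cells treated with the vehicle DMSO and Ishikawa cells treated with 17β-estradiol (E2), using both peak lists of this antibody from this line. The DMSO list held 19349 regions and the E2 list 16554, together 35903 of the 528044 regions in the 45 lists of the series. A region was called shared when it overlapped a region of the other list by at least 1 bp, and otherwise DMSO-only or E2-only. Ishikawa is an established human line from an endometrial adenocarcinoma that responds to estrogen. Cells of both groups were kept in hormone-depleted medium before E2 (10 nM) or DMSO was added for 1 h, and the antibody was raised against TAF1 (TAF II p250). Each group was 1 library, so no difference below was tested, and the exact 95% binomial intervals given with shares cover counting error only.

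TAF1 is the largest subunit of TFIID, the complex that brings the TATA-binding protein to promoters and nucleates the assembly of RNA polymerase II with the general transcription factors. It has bromodomains that bind acetylated histones and contacts DNA around and just downstream of the transcription start site. TFIID is found at most active promoters, including those without a TATA box. Estradiol acts through the estrogen receptor, which binds an inverted repeat known as the estrogen response element, mostly at enhancers away from promoters.

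Fold enrichment is the ratio of ChIP signal to local background at a summit, and pileup is the number of extended tags stacked there. The fold enrichment ran from 2.04 to 107 in the DMSO list and from 2.18 to 91.8 in the E2 list. Pileup and local background were solved from the deposited values, and the lowest background shared by many peaks was 1.09 tags with DMSO and 1.11 with E2. This corresponds to an estimated depth of 13.1 M tags in the E2 library, and the lowest backgrounds of both libraries differed by a factor of 1.02. Start sites of genes that mark Mullerian tissue or epithelia were bound in both lists, with fold enrichments of 39.9 with DMSO and 28.1 with E2 at PAX8, 16.0 and 14.98 at SOX17, 27.8 and 23.1 at KRT8, and 59.7 and 49.0 at CDH1. The endometrial markers HOXA11 and PGR (progesterone receptor) had no region at a start site in either list. Of 16 endometrial and Mullerian transcription factor genes, 8 were bound in both lists and 7 in neither. None of 16 blood cell genes and none of 16 hepatocyte genes were bound in both lists. With DMSO alone, 1 of the blood cell genes was bound. No hepatocyte gene was bound in either list.

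The regions that appeared in the E2 list alone include sites with the sequence that the estrogen receptor binds. The stretches below are 101 bases around the summits of E2-only regions away from promoters, on the plus strand of GRCh37, and were chosen because they carry the estrogen response element (an inverted repeat of GGTCA around any 3 bases) exactly or with 1 of its 10 fixed letters different. Capitals mark the element. The first 2 are exact matches, in an intron of CARS1, a cysteine tRNA ligase gene (chr11:3032163-3032263), and between genes with FGF19, a fibroblast growth factor gene, as the nearest start site (chr11:69512116-69512216). The others were chosen after their values were seen and have 1 mismatch. Introns of MAB21L4 (chr2:241832945-241833045) and of the estrogen target GREB1 (chr2:11638823-11638923) hold the next ones. Another lies 8200 bp from the start of CTSD, the cathepsin D gene and another estrogen target (chr11:1793953-1794053). The last lies 14626 bp from the nearest protein-coding start, that of SLC2A1, which encodes a glucose transporter (chr1:43439140-43439240).
CARS1 intron: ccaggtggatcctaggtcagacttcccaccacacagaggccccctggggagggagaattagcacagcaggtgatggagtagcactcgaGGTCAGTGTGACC
FGF19 region: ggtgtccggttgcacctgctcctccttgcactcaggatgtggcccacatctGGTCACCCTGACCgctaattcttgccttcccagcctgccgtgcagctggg
MAB21L4 intron: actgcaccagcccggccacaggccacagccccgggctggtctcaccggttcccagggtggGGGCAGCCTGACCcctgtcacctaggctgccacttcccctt
GREB1 intron: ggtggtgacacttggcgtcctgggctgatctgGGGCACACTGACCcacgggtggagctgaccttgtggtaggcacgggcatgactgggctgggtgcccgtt
CTSD region: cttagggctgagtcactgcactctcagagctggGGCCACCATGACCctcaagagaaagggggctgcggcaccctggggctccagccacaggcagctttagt
SLC2A1 region: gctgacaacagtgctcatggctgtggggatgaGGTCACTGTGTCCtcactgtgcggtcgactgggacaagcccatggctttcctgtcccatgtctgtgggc

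In these 6 regions the fold enrichment after E2 was 15.6 at CARS1, 8.04 at the FGF19 region, 16.1 at MAB21L4, 9.55 at GREB1, 9.23 at the CTSD region and 12.6 at the SLC2A1 region. Their pileups were 33, 30, 33, 29, 28 and 26 tags, and the DMSO list had no region at any of them. The median E2 region had a pileup of 62 tags, so all 6 were below it. The element lay 44, 7, 16, 12, 11 and 12 bp from the summit in the same order. Of the 16 E2-only regions away from promoters with an exact or singly mismatched element, 15 also had a region of the AP-1 subunit JUN after E2, and 1 had a JUN region after DMSO. Over all E2-only regions away from promoters these shares were 62.6% and 6.86%, and the JUN list itself was longer after E2, with 18311 regions against 3768.

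Nearly all TAF1 regions of the E2 list touched a region of the DMSO list. The shared regions were 16087 of the 16554 in the E2 list (97.2%, interval 96.9 to 97.4%) and 15188 of the 19349 in the DMSO list (78.5%, 77.9 to 79.1%). The E2-only regions numbered 467 (2.82% of their list, 2.57 to 3.08%) and the DMSO-only regions 4161 (21.5%, 20.9 to 22.1%). When a reciprocal overlap of 50% was required, the E2-only regions numbered 2673 and the DMSO-only regions 5468. Of the DMSO regions, 934 were overlapped by 2 or more E2 regions. The E2 list had 0.856 times as many regions as the DMSO list and covered 11.3 Mb against 14.6 Mb. When the DMSO list was shortened to the 16554 regions with the lowest p-values, 1129 E2 regions and 2060 DMSO regions had no partner.

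Regions found in a single list had lower enrichment than shared ones. The median fold enrichment was 17.0 for shared regions in the DMSO list and 12.4 for those in the E2 list, against 8.33 for DMSO-only and 8.27 for E2-only regions. The median widths were 795, 614, 306 and 275 bp in the same order, and the median pileups 92, 63, 31 and 25 tags. With each list cut into 10 equal bins by fold enrichment, 31.4% of regions in the lowest DMSO bin had a partner in the E2 list, 86.3% in the fifth bin and 100% in each of the highest 2 bins. In the E2 list the share with a partner was 92.6% or more in every bin. The strongest DMSO-only region reached a fold enrichment of 23.1 and the strongest E2-only region 17.2.

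**Figure D1:**
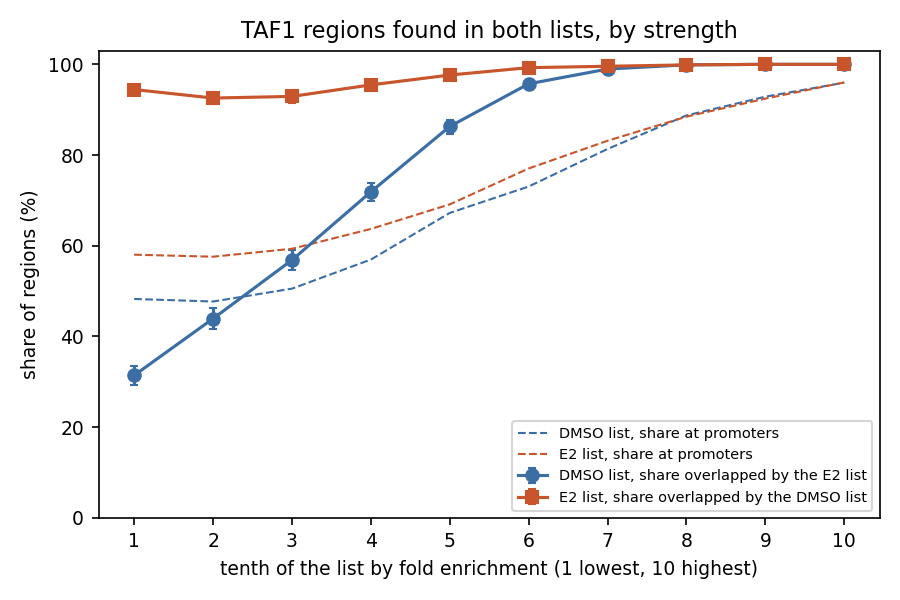
Share of TAF1 regions overlapped by the other list (solid lines) and share at promoters (dashed lines) in each of 10 equal bins of a list ordered by fold enrichment, DMSO in blue and E2 in orange, with exact 95% binomial intervals on the solid lines. The DMSO line climbs from 31.4% to 100%, while the E2 line stays at 92.6% or above.

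Shared TAF1 regions lay at promoters, and E2-only regions mostly did not. A promoter was taken as 250 bp either side of any annotated start site. By this window 75.9% of the shared E2 regions (75.3 to 76.6%) and 77.4% of the shared DMSO regions overlapped a promoter, against 44.1% of DMSO-only regions (42.6 to 45.6%) and 117 of 467 E2-only regions (25.1%, 21.2 to 29.2%). Of the E2-only regions, 192 had their summit in an intron (41.1%), 115 between genes (24.6%) and 43 in an exon (9.21%). With a window of 1000 bp either side the shares became 82.7% for shared E2 regions, 59.2% for DMSO-only and 41.8% for E2-only regions, in the same order. Summits of shared promoter regions that lay within 1000 bp of a protein-coding start sat a median of 6 bp downstream of it with DMSO and 8 bp with E2, with the middle 50% from 42 bp upstream to 48 bp and 53 bp downstream. DMSO-only promoter summits were centred at 0 bp but spread wider, from 137 bp upstream to 101 bp downstream. The promoter share was also higher among stronger regions of a list, at 48.3% in the lowest and 96.0% in the highest of the 10 bins of the DMSO list, and the share of the class difference that goes with strength was not tested.

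**Figure D2:**
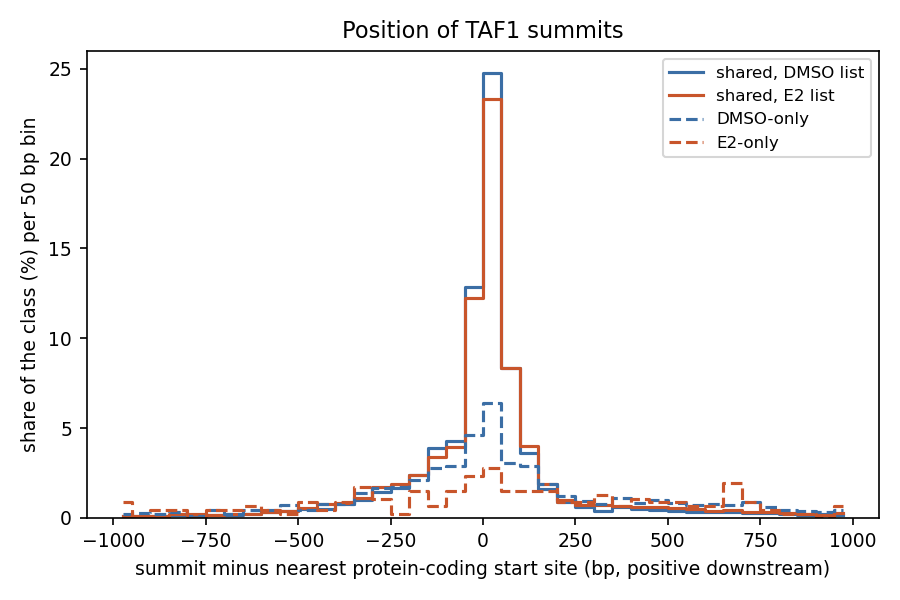
Position of TAF1 summits relative to the nearest protein-coding start site, in bp, as the percentage of each class per 50 bp bin, for shared regions (solid) and regions of a single list (dashed). Shared summits peak at the start site in both lists, and E2-only summits show little excess there, with 160 of 467 within 1000 bp of a start.

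At most shared regions the signal was lower after E2. Matching each region once, by the longest overlap, gave 15104 pairs, and E2 had the lower fold enrichment in 13603 of them (90.1%). The median log2 ratio of fold enrichment, E2 over DMSO, was −0.38 (SD 0.33 across pairs), or 0.768 times the DMSO value, with 5th and 95th percentiles of −0.94 and 0.15. The pileup was lower by much the same amount (median log2 ratio −0.37), while the local background was not (0.01). The median was −0.39 in 11534 promoter pairs and −0.35 in 3570 other pairs. With 1 library per group, a lower occupancy after E2 and a less efficient immunoprecipitation in that library cannot be told apart. The RNA polymerase II replicates of T-47D cells, a breast carcinoma line, were the only measure of spread between libraries of 1 treatment in the series. Replicate 2 over replicate 1, they differed by a median log2 ratio of −1.78 with DMSO and −0.75 with E2. Both values are further from 0 than the TAF1 difference. These lists are of another target in another line. Replicate 2 held 0.541 times as many regions as replicate 1 with DMSO and 0.506 times with E2. Changes at single regions are therefore given below after subtraction of the median.

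The order of the regions was kept. Spearman's rho between the fold enrichments of both lists was 0.895 across the 15104 pairs, as a description, since pairs share their libraries and their base composition. It was 0.915 for promoter pairs and 0.731 for other pairs. Between replicates of RNA polymerase II, whose lists differed in length, it was 0.466 with DMSO and 0.705 with E2. Between the TAF1 lists of T-47D cells, E2 and DMSO, it was 0.747 across 3973 pairs. Of the 1511 pairs in the highest 10% with DMSO, 1208 (79.9%) were also in the highest 10% with E2, and the median pair moved by 6.57 percentile ranks. The summits of a pair lay a median of 29 bp apart.

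**Figure D3:**
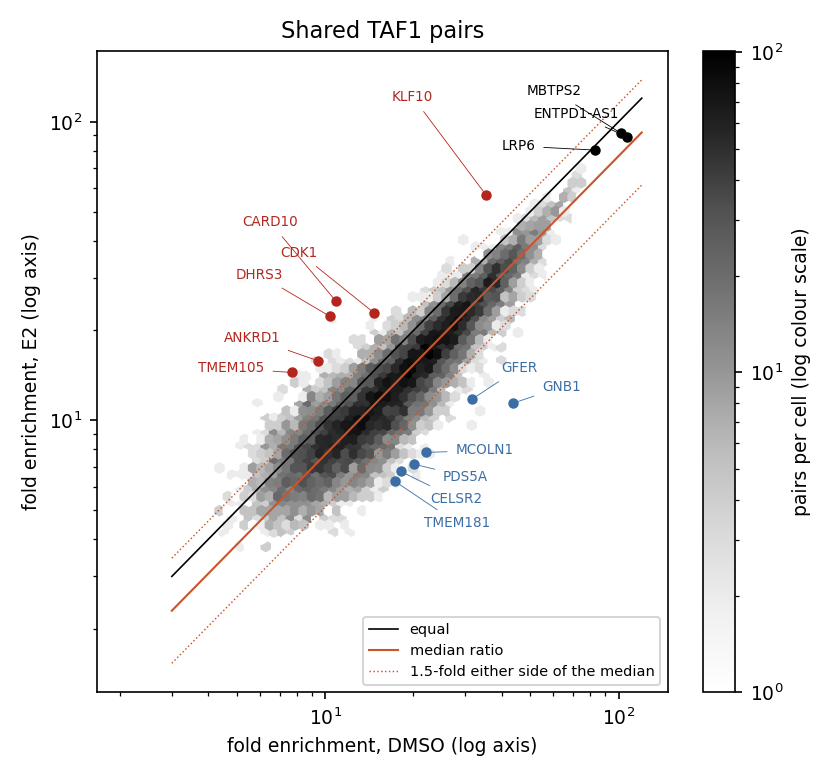
Fold enrichment of the 15104 shared TAF1 pairs with DMSO (horizontal, log axis) and E2 (vertical, log axis), shaded by the number of pairs, with lines for equality, for the median ratio of 0.768 and for 1.5-fold either side of it. Named points are the 3 strongest promoters (black) and the 6 largest differences in each direction among promoter pairs with summits within 100 bp of each other (red higher, blue lower after E2); most pairs lie just below equality.

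The promoters below were chosen for a high fold enrichment in both lists, which favours ratios near 1, so nothing is read from their ratios. The highest fold enrichment was at MBTPS2, the gene of a protease that releases membrane-bound transcription factors, with 102 with DMSO and 91.8 with E2, and at the antisense transcript ENTPD1-AS1 with 107 and 89.1. LRP6, a Wnt co-receptor gene, had 83.3 and 80.4, and MKRN3, an imprinted gene, 79.3 and 81.9. FAM43A had 73.4 and 74.2, UBE2L3, a ubiquitin-conjugating enzyme gene, 74.7 and 69.5, BCL2L13 75.2 and 68.3, and the ribosomal protein gene RPL11 72.3 and 67.2. TAF5, whose product is a scaffold subunit of TFIID itself, had 68.0 and 68.1, with pileups of 452 and 456 tags. LINC01518 with 85.2 and 67.6 completed these 10.

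The 150 bases upstream of the outermost start site inside the peak are shown for 2 of these promoters and for 3 that differed between the lists, on the strand of the gene (GRCh37: MBTPS2 chrX:21857585-21857734 plus, TAF5 chr10:105127573-105127722 plus, CARD10 chr22:37915550-37915699 minus, DHRS3 chr1:12678217-12678366 minus, GNB1 chr1:1822557-1822706 minus). Capitals mark matches to short motifs searched on both strands. These were the binding letters of SP factors, written GGGCGG, those of ETS factors, written CCGGAAG, the NF-Y box, which reads CCAAT, and the TATA box, for which the search used the letters TATAAA. Among 20090 protein-coding promoters of this length, 43.1% held the SP letters, 25.1% NF-Y, 7.33% ETS and 6.71% the TATA box.
MBTPS2: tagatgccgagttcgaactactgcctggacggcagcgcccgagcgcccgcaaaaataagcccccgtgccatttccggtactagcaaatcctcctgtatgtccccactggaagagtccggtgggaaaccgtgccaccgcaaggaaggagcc
TAF5: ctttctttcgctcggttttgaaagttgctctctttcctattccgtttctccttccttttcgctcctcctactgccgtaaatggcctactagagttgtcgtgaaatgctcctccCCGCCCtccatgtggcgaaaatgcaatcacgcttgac
CARD10: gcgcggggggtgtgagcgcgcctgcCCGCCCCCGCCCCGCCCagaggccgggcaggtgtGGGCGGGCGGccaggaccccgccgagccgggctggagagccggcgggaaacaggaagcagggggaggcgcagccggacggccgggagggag
DHRS3: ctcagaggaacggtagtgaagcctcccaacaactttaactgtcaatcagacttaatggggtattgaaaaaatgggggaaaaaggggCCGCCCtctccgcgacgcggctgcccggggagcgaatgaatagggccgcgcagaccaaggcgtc
GNB1: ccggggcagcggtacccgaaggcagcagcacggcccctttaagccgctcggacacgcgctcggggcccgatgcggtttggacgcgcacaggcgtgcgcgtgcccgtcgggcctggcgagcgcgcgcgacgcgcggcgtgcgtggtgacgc

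CARD10 held several SP matches and TAF5 and DHRS3 1 each, while neither MBTPS2 nor GNB1 held any of the 4 motifs in this stretch. A match is a description of the letters and does not show that a factor was bound.

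After subtraction of the median, 613 of the 15104 pairs were more than 1.5-fold higher after E2 (4.06%) and 664 more than 1.5-fold lower (4.4%). Among promoter pairs these were 323 (2.8%) and 470 (4.07%), and among other pairs 290 (8.12%) and 194 (5.43%), all relative to the median of all pairs. Around their own median, 7.003% of the other pairs were higher and 6.16% lower. In 558 of the 613 higher pairs the pileup was also above its median ratio, and in 240 it was so by more than 1.5-fold. Of the 664 lower pairs, the pileup was below its median ratio in 632 and by more than 1.5-fold in 197. Fold enrichment is made from pileup and local background, so both are given for the promoters named next. Pileups there are raw tag numbers, without subtraction of their median log2 ratio of −0.37. The named pairs were ranked by fold enrichment, which favours differences in either value, so counts of such differences are no separate support.

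Among promoters the largest gain after E2 was at CARD10, a scaffold of NF-κB signalling, where fold enrichment was 10.9 with DMSO and 25.04 with E2 (1.58 above the median log2 ratio) and pileup 33 and 65 tags. DHRS3, a retinaldehyde reductase gene that limits retinoic acid synthesis, had 10.4 and 22.3 (1.49 above), with pileups of 46 and 101. ANKRD1, a nuclear cofactor gene, had 9.42 and 15.9 with pileups of 19 and 33, and TSKU, which encodes a secreted leucine-rich protein, 14.1 and 21.7 with pileups of 53 and 74. In each of these 4 the number of tags at the summit was itself higher after E2.

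Other promoters were higher in fold enrichment with little or no gain in raw tags. KLF10, a zinc-finger factor of the immediate-early class, had fold enrichments of 35.3 and 57.0 (1.07 above the median), but its pileups were 234 and 233 and its local backgrounds 5.66 and 3.11. CDK1, the mitotic cyclin-dependent kinase, had 14.7 and 22.9 with pileups of 128 and 120 and backgrounds of 7.78 and 4.29. TMEM105 had 7.72 and 14.5 with pileups of 34 and 35. Of the 10 largest gains among promoter pairs with summits within 100 bp, which also include AMZ2P1, PGAP4 and SEPHS1, the pileup was higher after E2 in 6 and the background lower in 8.

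The largest differences without regard to summit position were mostly pairs of unlike summits. Of the 10 largest gains 3 had summits within 100 bp (CARD10, DHRS3 and TMEM105), and NECTIN2, FGGY, SIK2, SPEN, CEP57, ZNF805 and the transcript ENSG00000226900 did not. Of the 10 largest reductions 1 did (GNB1). GRSF1, an RNA-binding protein gene, is an example: its wide DMSO region at 52.2 was matched to an E2 region at 7.94, but another E2 region overlapping it reached 43.4, which is 0.12 above the median. CDC45 and APLP2 were likewise 0.03 and 0.01 above the median by the strongest overlapping E2 region. LYSMD4, NFKBIZ, TNPO2, RND3, NT5DC3 and DHX32 completed these 10 and stayed below the median by the strongest region.

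Among promoter pairs with close summits, the largest reduction after E2 was at GNB1, a G protein subunit gene, from 43.6 with DMSO to 11.4 with E2 (−1.55 relative to the median), with pileups of 119 and 43. MCOLN1, a lysosomal channel gene, had 22.1 and 7.81 with pileups of 124 and 57, and PDS5A, a cohesin regulator gene, 20.1 and 7.13 with pileups of 90 and 52. CELSR2, an adhesion receptor gene from the list of estrogen-induced genes, had 18.1 and 6.74 with pileups of 52 and 25. GFER, TMEM181, ADAMTSL5, DPH7, MACF1 and DCUN1D4 lay between −1.09 and −0.99 relative to the median, and for TMEM181 the strongest overlapping E2 region was at −0.23. In all 10 the pileup was lower and the background higher after E2. These pairs were ranked by a ratio made from both values, so this count is no separate support. Over all pairs the median log2 ratio was −0.37 for pileup and 0.01 for background.

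Away from promoters, the shared regions with the largest gains lay in introns and between genes. The largest gain was in an intron of NFIC, a nuclear factor I gene, where fold enrichment was 11.9 with DMSO and 28.6 with E2 (1.64 above the median) and pileup 32 and 79 tags (DMSO region chr19:3390039-3390290). An intron of CBFA2T3, a transcriptional corepressor gene, had 10.9 and 23.5, with pileups of 33 and 59 (chr16:88988726-88989221). A region 94056 bp from the start of CEBPB, the C/EBPβ gene, had 7.08 and 14.1 with pileups of 22 and 43, and a region on chromosome 8 nearest to the start of ODF1 11.1 and 18.9 with pileups of 57 and 89. The pileup was higher after E2 in 9 of the 10 largest gains of this kind, the exception being the region nearest ZC3H12C with 71 tags in both. The others lay nearest TEX19, DDX1, KLF13, MMP17 and RAI1. JUN had a region at 9 of the 10 after E2 and at 2 after DMSO, while over all shared E2 regions away from promoters it had one at 68.0% and 27.8%.

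The strongest of the 467 E2-only regions lay in an intron of ANO1, a chloride channel gene (chr11:69950607-69951312), with a fold enrichment of 17.2 and a pileup of 43 tags. The next were 129375 bp from the start of the forkhead gene FOXD1 (16.9), and in introns of MAB21L4 (16.1), GSE1, a corepressor subunit gene (16.0), and CARS1 (15.6). Regions nearest KCNU1 (14.9), ALPL, the tissue-nonspecific alkaline phosphatase gene (14.8), NTMT1 (14.03) and DHRS3 (13.997) followed, together with 1 promoter, that of the noncoding transcript SWINGN (14.4). All 10 had a JUN and an LSD1 region after E2, and 8 a RARA region, whereas after DMSO 1 had a JUN region, 3 an LSD1 region and none a RARA region. The lists of all 3 factors were longer after E2, and the shares over each whole class away from promoters are given with the other targets. Of the 10, 7 had H3K4me1, a mark of enhancers, with DMSO, against 57.4% of all E2-only regions.

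Several genes had more than 1 E2-only region away from promoters. CBFA2T3 was the nearest gene of 5 such regions, with fold enrichments up to 11.5, PADI1, a protein citrullinating enzyme gene, of 4, and GSE1, NTMT1, DHRS3, OSBPL5, LOXL4 and HMCN2 of 3 each. At DHRS3 these regions, with fold enrichments of 13.997, 9.59 and 6.97, accompanied the gain at its promoter. At CBFA2T3 they accompanied the gain at the shared intronic site, and the promoter itself had an E2-only region of 7.80. NFIC likewise had an E2-only region at 8.61, with a singly mismatched response element, in addition to its shared intronic site.

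Within 100 kb of the 29 genes on a list of known estrogen-induced genes there were 119 DMSO and 111 E2 regions, of which 21 were DMSO-only and 7 E2-only. The E2-only regions lay 1 to a locus, among them GREB1, TGFA, CCND1, RARA, CTSD and ELF3. Those at GREB1, CTSD and CCND1 are the GREB1, CTSD and FGF19 stretches shown above. DMSO-only regions also lay at GREB1 (1), CCND1 (2), RARA (2) and ELF3 (2). For comparison, E2-only regions were 2.82% of the whole E2 list and DMSO-only regions 21.5% of the whole DMSO list. The DMSO-only regions were spread over 13 of the 29 loci.

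DMSO-only regions were more numerous and more often at promoters. The strongest lay at the promoter of PLEKHM2 with a fold enrichment of 23.1 and a pileup of 57 tags, followed by a site 6876 bp from SOCS3, a cytokine signalling inhibitor gene (20.5), and the promoters of NFATC1 (19.3), NPTXR (19.2) and MIR3646 (18.6). Regions nearest ARID1B (18.5) and THNSL2 (18.4), and promoters of the noncoding transcript ENSG00000270933 (18.3), of PCBP3 (18.2) and of ZDHHC11B (18.04), completed the 10. Of these, 8 had H3K4me3, a mark of promoters, with DMSO and 10 after E2, against 78.7% and 79.6% of all DMSO-only regions.

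Of 20136 protein-coding genes, 11172 had TAF1 within 250 bp of a start site in both lists (55.5%), 869 with DMSO alone (4.32%) and 42 with E2 alone (0.209%). For the genes bound in both, the median fold enrichment was 21.2 with DMSO and 15.8 with E2. It was 8.65 for genes bound with DMSO alone and 7.79 for those bound with E2 alone. For some of these genes the peak itself reached into the other list at another place: it was shared for 78 of the 869 and 4 of the 42, among them the strongest of each, TEAD3 at 35.4, MED13 at 34.8 and SP1 at 31.2 with DMSO and TEX14 at 15.2 with E2. This left 38 genes whose E2 region overlapped no DMSO region. They include PLEKHA2 at 12.7, FBLN2, an extracellular matrix gene, at 11.4, FGFR3, a growth factor receptor gene, at 11.003, CCR3 at 10.7, SYNDIG1 at 10.5, SLIT3 at 9.84 and MYBL2, a cell cycle transcription factor gene, at 9.55. Among bound genes, 264 were more than 1.5-fold higher (2.36%) and 408 more than 1.5-fold lower (3.65%) after E2 relative to the median.

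Genes on the list of estrogen-induced genes were bound at about the share of all genes. Of the 29 estrogen-induced genes 17 were bound in both lists (58.6%, against 55.5% of all genes), CA12 and IGF1R with DMSO alone, none with E2 alone, and 10 in neither: AREG, CXCL12, GREB1, IGFBP4, MYB, OLFM1, PDZK1, PGR, TFF1 and TFF3. The median of the 17 was 0.08 above that of all genes in log2 ratio. None was more than 1.5-fold higher, and SIAH2, a ubiquitin ligase gene, with 26.3 and 10.3, and CELSR2 were more than 1.5-fold lower. TGFA, a growth factor gene, had 21.8 and 21.9, CCND1, a cyclin gene, 27.8 and 25.4, and XBP1 33.0 and 24.4. Of the steroid receptor genes, ESR1, the estrogen receptor gene itself, was bound weakly with 6.92 with DMSO and 9.68 with E2, 0.87 above the median with pileups of 50 and 64. PGR was bound in neither list.

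Immediate-early genes encode transcription factors and feedback regulators that are induced within minutes of a signal. Of 30 such genes, 27 were bound in both lists, against 55.5% of all genes, and EGR2 with DMSO alone. FOS had 46.5 and 33.3 and JUN 49.6 and 36.8, −0.09 and −0.05 relative to the median ratio, and MYC had 36.3 and 33.4. EGR1 had 13.3 with DMSO and 5.81 with E2, with pileups of 125 and 38 tags, FOSB 10.5 and 5.25 with pileups of 84 and 23, and SRF, the serum response factor gene, 15.6 and 7.64 with pileups of 125 and 83. EGR2 had 7.88 and a pileup of 57 with DMSO. These 4 had fewer raw tags with E2, or no region, while the median log2 ratio of pileup over all pairs was −0.37. KLF10 was the single gene of the 27 more than 1.5-fold higher and 3 were lower, against 2.36% and 3.65% of all bound genes. The median of the 27 was −0.05 relative to all genes.

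Constitutively expressed groups were bound almost completely. TAF1 was at the start sites of all 76 cytosolic ribosomal protein genes and all 31 proteasome genes in both lists, of 32 of 33 genes of TFIID and the general transcription factors (all but GTF2H2) and of 11 of 12 RNA polymerase II subunit genes (all but POLR2J). Ribosomal protein genes were among the strongest, with a median of 38.6 with DMSO (range 22.03 to 75.5) and 33.1 with E2 (15.1 to 67.2), at percentile ranks of 90.8 and 93.6. Their ratio lay above the median of all genes at 67 of 76, by a median of 0.18, and by 0.17 in pileup. RPS3A was the single one past 1.5-fold, with 35.8 and 44.2 and pileups of 339 and 327. The proteasome genes had medians of 30.3 and 25.5. In the TFIID group TAF1 itself had 13.3 and 10.1, TBP 27.5 and 18.8 and TAF7 30.7 and 22.1, and GTF2A1, a TFIIA subunit gene, was 0.65 above the median with 19.8 and 23.8 but pileups of 145 and 108. Of 30 cell cycle and replication genes 28 were bound in both lists. MCM5, a helicase subunit gene, at 9.83 and 13.8 and RRM2, a ribonucleotide reductase gene, at 21.6 and 26.3 were past 1.5-fold. Both had fewer raw tags after E2 (112 and 94 at RRM2), while the median log2 ratio of pileup over all pairs was −0.37.

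Genes of cell identity were bound in part. Of 16 endometrial and Mullerian transcription factor genes 8 were bound in both lists and WT1 with DMSO alone at 6.53. HOXA10, a uterine homeobox gene, had 23.8 and 12.9. FOXO1, a factor of the secretory endometrium, had 39.7 with DMSO and 15.9 with E2 (−0.93 relative to the median), with pileups of 110 and 44. Of 10 luminal breast factors 4 were bound in both, FOXA1 with DMSO alone at 9.55, and ELF5, GATA3, SPDEF, TFAP2B and TRPS1 in neither. Of 13 epithelial genes 12 were bound in both, all but MUC1. Of 16 neuronal genes 4 were bound in both and SYT1 with E2 alone at 9.53.

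**Figure D4:**
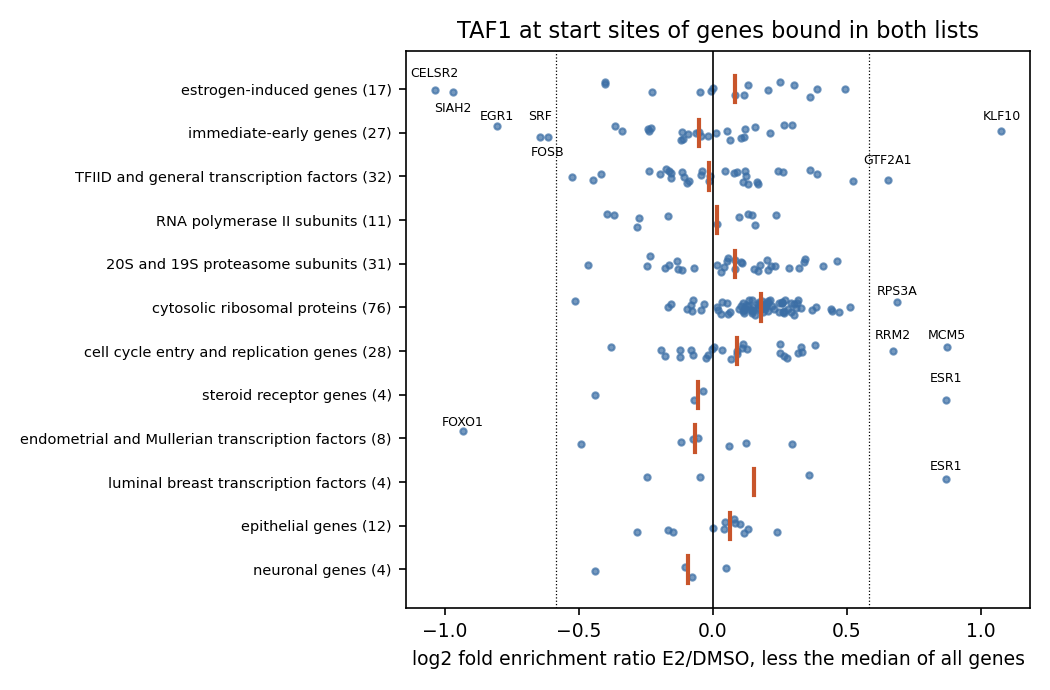
Log2 ratio of fold enrichment at gene start sites, E2 over DMSO, less the median of all 11172 genes bound in both lists, for members of gene lists with at least 4 such genes (number in parentheses). Each point is a gene, the orange bar the median of the list and the dotted lines 1.5-fold; ribosomal protein genes sit at a median of 0.18, and KLF10 and CELSR2 lie past 1.5-fold on opposite sides.

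The other Ishikawa lists separated the classes in ways that the overlap of TAF1 lists did not use. The promoter mark H3K4me3, measured at 8 h with DMSO, covered 96.7% of shared E2 regions, 78.7% of DMSO-only and 62.1% of E2-only regions. With the H3K4me3 list after E2 these shares were 96.9%, 79.6% and 76.7%, so the gap between DMSO-only and E2-only regions was much smaller. Away from promoters H3K4me3 covered 90.9%, 69.7% and 56.3% with DMSO and 91.0%, 70.2% and 73.1% after E2. The enhancer mark H3K4me1 with DMSO covered 19.4%, 34.3% and 57.4%. The corepressor SIN3A, from hormone-stripped medium, overlapped 89.6%, 54.7% and 39.8%. Of the shared E2 regions 31.7% had TAF1 in T-47D cells after E2, against 1.54% of DMSO-only and 1.71% of E2-only regions. That T-47D list held 5645 regions, 93.7% of them at promoters. Away from promoters the shares were 3.90%, 0.559% and 1.43% in the same order.

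Away from promoters, 67.4% of 350 E2-only regions had H3K4me1 with DMSO (62.2 to 72.3%), against 50.5% of 2326 DMSO-only (48.4 to 52.5%) and 56.1% of 3873 shared E2 regions (54.5 to 57.6%). JUN was found at 6.86% of these E2-only regions after DMSO and at 62.6% after E2 (57.3 to 67.7%). It was found at 11.7% and 49.4% of DMSO-only and at 27.8% and 68.0% of shared regions. The histone demethylase LSD1 was found at 21.7% of the E2-only regions after DMSO and 68.9% after E2, at 27.5% and 55.9% of DMSO-only and at 48.4% and 75.3% of shared regions. The JUN list grew from 3768 regions with DMSO to 18311 with E2, and the LSD1 list from 8618 to 18384, so the increase appeared in every class, DMSO-only regions included. The retinoic acid receptor RARA, with 137 and 2883 regions, was found after E2 at 10.6% of E2-only, 4.99% of DMSO-only and 18.3% of shared regions away from promoters.

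The appearance of several other targets after E2 was counted over regions away from promoters. The 7 that were counted are JUN, LSD1, RARA and MAX, measured at 1 h, and H3K4me1, H3K4me3 and H3K27me3, measured at 8 h. At least 3 of 7 other targets or marks were present after E2 and absent after DMSO at 75 of 350 E2-only regions (21.4%), at 94 of 2326 DMSO-only regions (4.04%) and at 269 of 3873 shared E2 regions (6.95%). JUN was already present with DMSO at 27.8% of the shared and 6.86% of the E2-only regions, and H3K4me3 at 90.9% and 56.3%. The H3K27me3 list held 2199 regions with DMSO and 6992 with E2. The part of these starting shares and list lengths in the differences was not tested. The reverse, at least 3 targets present with DMSO alone, was found at 0, 9 and 18 of these regions.

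**Figure D5:**
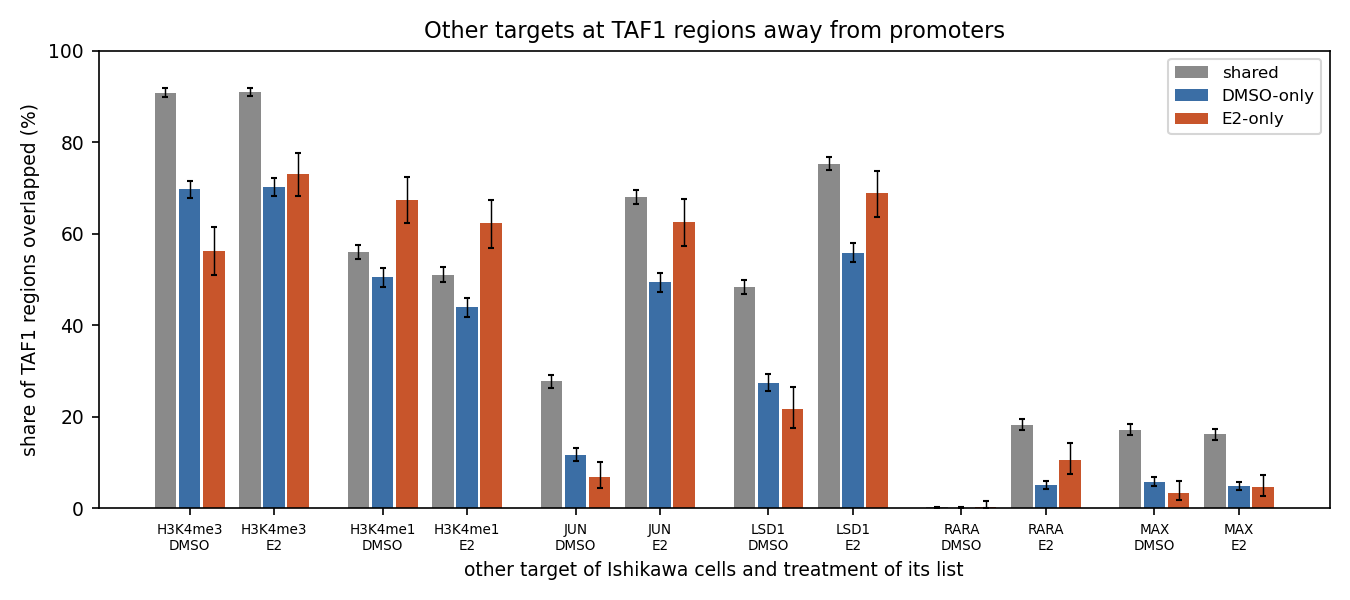
Share of TAF1 regions away from promoters that overlapped other Ishikawa lists, for shared (grey), DMSO-only (blue) and E2-only (orange) regions, with exact 95% binomial intervals. JUN and LSD1 shares are higher with the E2 list than with the DMSO list in all 3 classes, and H3K4me1 is highest at E2-only regions.

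The sequence around the summits differed between the classes. Within 50 bp of the summit, AGGTCA, the core hexamer of nuclear receptor sites, was found at 50 of 467 E2-only regions (10.7%, 8.05 to 13.9%), at 4.73% of DMSO-only regions (4.11 to 5.42%), at 3.56% of shared E2 regions (3.27 to 3.85%) and at 4.88% of 20071 protein-coding start sites taken with windows of the same length. The response element with at most 1 mismatch was found at 17 E2-only regions (3.64%, 2.13 to 5.76%), at 10 DMSO-only (0.24%, 0.12 to 0.44%), at 52 shared E2 regions (0.323%) and at 60 start sites (0.299%). The exact element was found at 2, 0, 4 and 5 of them. Away from promoters the element with at most 1 mismatch stood at 4.57% of E2-only (2.64 to 7.32%), 0.258% of DMSO-only and 0.671% of shared E2 regions.

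Of the promoter-type letters, those of ETS and SP factors were more frequent over all shared regions and the NF-Y box was not. The classes differ in promoter share, and its part in these differences was not tested. The ETS letters CCGGAAG stood within 50 bp of the summit at 5.81% of shared E2 regions, 1.71% of DMSO-only and 1.5% of E2-only regions, and GGGCGG at 27.4%, 22.7% and 14.99%. The NF-Y box CCAAT stood at 6.91%, 7.23% and 7.92%, against 11.8% of all start sites. Away from promoters the ETS letters stood at 2.45%, 1.12% and 2.0% (1.99 to 2.99%, 0.73 to 1.63% and 0.81 to 4.08%). There the intervals of shared E2 and E2-only regions overlapped. GGGCGG stood at 19.5%, 16.9% and 12.6% of regions away from promoters. The AP-1 letters TGANTCA, bound by JUN and FOS proteins, stood at 2.53%, 4.18% and 4.71%, and away from promoters at 6.33%, 5.89% and 5.71% (5.58 to 7.14%, 4.97 to 6.93% and 3.53 to 8.69%), with overlapping intervals. The TATA box letters were found at 0.777% of shared E2 summits, 0.769% of DMSO-only and 0.642% of E2-only summits, against 5.65% of all start sites. The median ratio of observed to expected CpG was 0.80 at shared E2, 0.58 at DMSO-only and 0.37 at E2-only summits. The GC content was 67.3%, 63.4% and 62.4%. Away from promoters the CpG ratio was 0.46, 0.39 and 0.33 and the GC content 63.4%, 61.4% and 62.4%.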

How the data were processed

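TAF1 ChIP-seq of Ishikawa cells was analysed from 2 deposited peak lists, 1 library per treatment. Per the submitters' processing notes the authors used Bowtie 1.1.2 and MACS2 2.1.0.20140616 on hg19, keeping uniquely aligned reads. In the lists deposited by the authors, fold enrichment is a ratio of pileup to local background, and significance is given as −log10 p, −log10 q and a score of 10 times −log10 p. The lists began at a −log10 p of 10.3 (DMSO) and 10.0 (E2), so weaker sites were not observed. Region names inside both lists spell the target as TAF2_250, and the labels' name, TAF1 (TAF II p250), was followed.

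Regions were compared by an overlap of at least 1 bp and annotated with GENCODE start sites on GRCh37, with a promoter reaching 250 bp either side. Pairs were matched by the longest overlap, and a pair was called at 1.5-fold from the median log2 ratio. Pileup and background were solved from fold enrichment and −log10 p within 0.01, which succeeded for all regions. Tag numbers were estimated from the lowest background and a mappable genome of 2700 Mb. With 1 library per group no test was made. Shares carry exact Clopper-Pearson 95% intervals, which cover counting error only. Gene names in the text are the 10 strongest, 10 largest gains and 10 largest reductions among promoter pairs of mean percentile rank 25 or above, the 10 strongest regions of each single-list class, and list members that were called. Gains and reductions with summits within 100 bp, the pileup, the strongest overlapping region, AGGTCA and the singly mismatched element were added after seeing the data. The members and gene lists were chosen with earlier results of these data known. The class and pileup steps were tested on simulated data. Python 3.11.15, pandas 2.3.3, numpy 2.4.6, scipy 1.17.1 and matplotlib 3.10.9 were used. A few list members are not reported here.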

Additional observations from a re-analysis of the deposited data

Results flagged for a closer look

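The TAF1 lists of Ishikawa and T-47D cells differed in opposite directions with E2, and this difference between the lines was not tested, since each line had 1 library per treatment. The E2 list held 0.856 times as many regions as the DMSO list in Ishikawa cells and 1.23 times as many in T-47D cells. The median log2 ratio of fold enrichment at shared pairs was −0.38 in Ishikawa cells and 0.27 in T-47D cells. The pileup ratio was −0.37 in Ishikawa cells and 0.05 in T-47D cells, where the local background moved by −0.25. The T-47D libraries had estimated depths of 29.1 M tags with DMSO and 16.9 M with E2, against nearly equal depths in Ishikawa cells. The T-47D estimates are rough, since they rest on 16 and 10 peaks at the lowest background, against 295 and 206 in Ishikawa cells.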

How the results depend on the processing

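Of 61 alternatives to values that answer a comparison, 25 stayed within the limits set for each value and 36 moved beyond them. A change of sign was looked for in the median log2 ratio alone, which stayed negative in every setting. The E2 to DMSO ratio of regions was 0.834 at a −log10 p of at least 20, 0.767 at a fold enrichment of at least 10 and 0.775 by covered bases. The shared percentage of the E2 list was 83.9 with 50% reciprocal overlap, 97.9 within 500 bp, 97.7 at a −log10 p of at least 20 and 93.2 with the DMSO list shortened. E2-only regions numbered 2673 with reciprocal overlap and 1129 with the shortened list, where DMSO-only regions numbered 2060. Promoter percentages for shared, DMSO-only and E2-only regions were 82.7, 59.2 and 41.8 at 1000 bp, 70.6, 36.9 and 20.3 with protein-coding starts, and 80.3, 49.1 and 33.3 at a −log10 p of at least 20. The median log2 ratio was −0.36 at a fold enrichment of at least 10, −0.39 in promoter pairs, −0.35 in other pairs and −0.37 by pileup. For pairs past 1.5-fold, 2.102% were higher and 2.25% lower at a fold enrichment of at least 10. By pileup these were 2.04% and 1.89%, and among other pairs around their own median 7.003% and 6.16%. Lower pairs were the more numerous over all pairs (4.06% higher and 4.4% lower), but not by pileup or among other pairs. Spearman's rho was 0.862 at a fold enrichment of at least 10, 0.921 with close summits, 0.945 for −log10 p, 0.915 in promoter pairs, 0.731 in other pairs and 0.967 by pileup. AGGTCA stood at 19.9% of E2-only and 10.2% of DMSO-only regions within 100 bp. Of 20 named promoters, GRSF1 (0.12), CDC45 (0.033) and APLP2 (0.013) turned direction with the strongest overlapping E2 region. The cause of other changes was not tested. No paired analysis was possible because TAF1 had 1 library per treatment and the results come from no test. Sites below the lists' p-value limit could not be seen.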
